A study of Mus musculus with 22 samples.

Results

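The 10 genes described here are the alpha- and beta-tubulin isotypes that single mouse astrocytes of the cortex read most. They are 4 alpha genes, *Tuba1a*, *Tuba1b*, *Tuba1c* and *Tuba4a*, and 6 beta genes, *Tubb2a*, *Tubb2b*, *Tubb3*, *Tubb4b*, *Tubb5* and *Tubb6*. They were picked by symbol from a table of 23453 genes. All 10 symbols were found in it, and all 10 were read in at least 5 cells, as were 12719 genes in total. Each of the 22 samples is 1 astrocyte, lifted from a coverslip after its calcium response to ethanol (EtOH) had been recorded. By the shape of that response 6 cells were labelled S-type (sustained), 6 T-type (transient) and 5 M-type (mixed), and the other 5 did not respond (NR). All 4 groups share strain, tissue and treatment. Each culture came from the cortex of a single C57BL/6 pup at postnatal day 0 to 1. It was shaken and given 10 µM cytosine arabinoside for 12 h against cells such as microglia, and was kept without serum for 24 h before imaging. Every cell, NR included, was loaded with a calcium dye and received EtOH, so that there was no group of untreated cells, and ATP closed each recording. Several cells may come from 1 pup, and which cells do was not stated in the labels.

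Tubulin is the building block of microtubules. One alpha and one beta subunit fold together with the help of chaperones and cofactors, join end to end into protofilaments, and these form the hollow tubes that carry cargo, shape the processes of a cell and build the mitotic spindle. The isotypes are encoded by separate genes, are nearly the same over most of their length and differ most in the last stretch, an acidic tail that reaches out of the tube and is the site of most modifications. Cells hold the amount of tubulin RNA in check by a feedback in which the factor TTC5 recognises the first residues of a tubulin as it is made and sends its RNA to decay. Astrocytes use microtubules to support their processes and to move organelles and RNA.

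The last 75 coding bases of 5 beta genes are shown because they hold the tail, the part by which the proteins differ, and because 75 bases was the length of a sequencing read (reads came in pairs), so that it can be seen whether such a read could tell these genes apart. They were read from GENCODE transcripts of mouse build GRCm38, run 5′ to 3′ on the coding strand and end with the stop codon. Capitals mark bases that differ from *Tubb5* in an alignment of the whole coding sequences.
Tubb5, chr17:35834982-35835056, minus strand: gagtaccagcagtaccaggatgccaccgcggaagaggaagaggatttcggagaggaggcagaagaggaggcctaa
Tubb2a, chr13:34074468-34074542, minus strand: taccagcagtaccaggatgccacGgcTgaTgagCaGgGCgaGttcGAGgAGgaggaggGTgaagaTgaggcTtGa
Tubb2b, chr13:34127471-34127545, minus strand: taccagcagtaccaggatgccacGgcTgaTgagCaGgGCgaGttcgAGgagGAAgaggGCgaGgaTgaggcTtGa
Tubb4b, chr2:25222308-25222382, minus strand: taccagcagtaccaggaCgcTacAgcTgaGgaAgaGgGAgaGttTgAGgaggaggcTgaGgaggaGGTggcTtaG
Tubb3, chr8:123421608-123421682, plus strand: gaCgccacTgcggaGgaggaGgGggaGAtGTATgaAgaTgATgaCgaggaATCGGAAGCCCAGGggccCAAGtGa

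Against *Tubb5*, the other beta genes shown had 15 to 17 substitutions. *Tubb3* also had 18 bases with no partner in the alignment and the other 3 genes had 3 each, which are in capitals too. Over the whole coding sequence *Tuba1a* and *Tuba1b* were 98.3% identical, *Tuba1a* and *Tuba1c* 97.1%, *Tuba1b* and *Tuba1c* 97.9%, and *Tubb2a* and *Tubb2b* 96.5%. *Tuba4a* shared 84.7% to 85.2% with the other alpha genes, and the remaining beta pairs shared 80.2% to 85.7%. The stretch read by the RNA feedback, the first 4 codons, was ATGCGCGAGATC in *Tubb2a*, ATGCGAGAGATC in *Tubb2b*, ATGAGGGAGATC in both *Tubb3* and *Tubb4b*, and ATGAGGGAAATC in *Tubb5*.

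This likeness bears on every value for the alpha genes. The authors counted uniquely aligned reads, and among all GENCODE transcripts only 29.6% of the 75-base windows of *Tuba1a*, 21.7% of those of *Tuba1b* and 43.3% of those of *Tuba1c* occurred in no other gene. The share was 56.8% for *Tubb2a*, 67.8% for *Tubb2b* and 59.1% for *Tubb4b*, whose other windows recurred mostly in the processed copy *Tubb4b-ps1*. In *Tubb3*, *Tubb5* and *Tubb6* it was 100%. Behind the stop codon, where priming at the 3′ end begins, it was 100% in *Tuba1a*, *Tuba1c*, *Tubb2a* and *Tubb2b*, 33.7% in *Tuba1b* and 36.5% in *Tubb4b*. The mate of a read can settle where a pair belongs, which these single windows do not take into account. *Tuba4a* had 100% within its coding sequence and 52.8% in total, because the end of its transcript overlaps *Stk16* on the genome. There the doubt is not where a read aligns but to which of the overlapping genes it was assigned. Windows were searched on both strands, the libraries were stranded, and whether counting used the strand was not stated. The split of reads among *Tuba1a*, *Tuba1b* and *Tuba1c*, and between *Tubb2a* and *Tubb2b*, is therefore uncertain, and so is the count of *Tubb4b* and the untranslated part of *Tuba4a*.

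Since no label ties a cell to its pup or dish, a response type was handled as 1 sample and no test was run between types. Each difference is a description of these cells, given with the range it took when every cell was left out in turn. A cell's normalized count is its read count divided by a size factor, the median ratio of the cell's counts to the mean cell over 3670 genes read in all 22 cells. The level of a type is the mean normalized count over its cells. Reads carried no molecular identifiers, so the intervals below cover counting error only. The cells held 2937786 to 22131076 gene-assigned reads. Only the T-type cell J163_18 fell under 5000000 reads, and 2 T-type cells, J162_16 and J163_18, had size factors far below the rest (0.276 and 0.183 against 0.548 to 2.31), so that their counts were scaled up most. All 11 astrocyte markers on the list were read in every type and took 0.449% to 2.38% of the reads of a cell, led by *Vim*, *Fabp7* and *Slc1a3*. Against NR, 5 of the 11 were at least 2-fold lower in S-type cells (22.4% of tested genes), 4 in T-type cells (32.4%) and 4 in M-type cells (28.1%). At least 2-fold higher were 0 in S-type cells (25.1%), 2 in T-type cells (28.6%) and 0 in M-type cells (19.8%). The 2 in T-type cells included *Vim*, at a log2 ratio of 1.30. Neuronal markers took 0.00242% to 0.208% of reads, microglial markers at most 0.00427% (the highest in NR), oligodendrocyte-lineage markers 0.00322% to 0.333%, and mural and fibroblast markers 0.0014% to 0.741% (the highest in S-type). Of 5 endothelial markers *Cdh5* and *Cldn5* had no read in any cell. The part of other cell types in the values below was not tested.

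**Figure D1:**
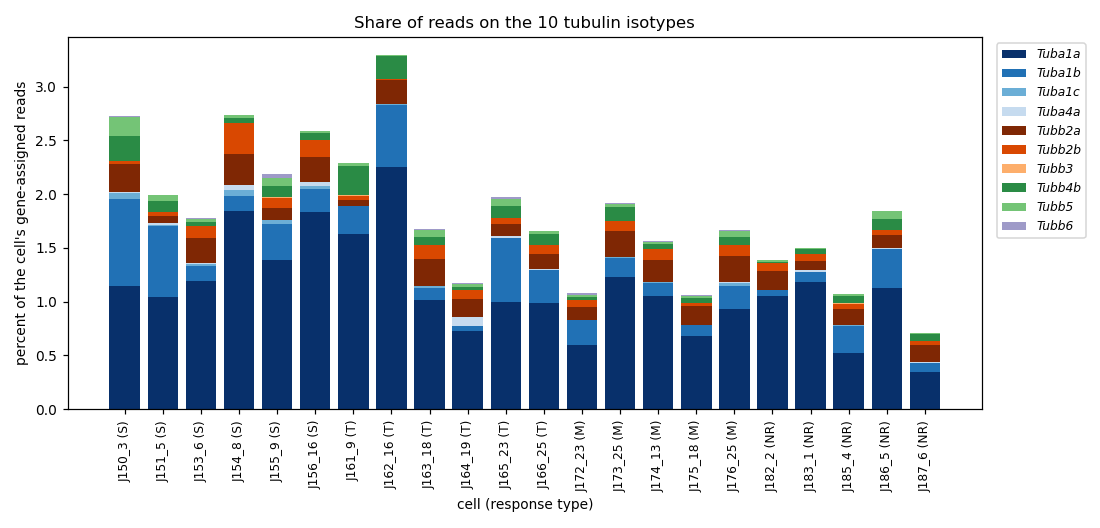
Each bar is 1 cell, its height is the percent of the cell's gene-assigned reads on the 10 tubulins, and colours divide it by isotype. *Tuba1a* (dark blue) is the largest part of every bar, the highest bar is J162_16 at 3.29% and the lowest is J187_6 at 0.705%.

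Tubulin RNA was abundant in every cell, and *Tuba1a* was its largest part. The 10 genes took 1.77%, 2.39% and 2.74% of reads as the lowest, median and highest value in S-type cells, and 1.17%, 1.82% and 3.29% in T-type cells. Among M-type cells the share was 1.08% in J172_23, 1.92% in J173_25, 1.56% in J174_13, 1.06% in J175_18 and 1.67% in J176_25. The M-type cells all lay inside the range of the T-type cells or just below it. The 5 NR cells held 1.39% (J182_2), 1.5% (J183_1), 1.07% (J185_4), 1.84% (J186_5) and 0.705% (J187_6). NR thus held the lowest cell of all, and its highest cell lay above the lowest S-type cell, so the types overlapped.

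Pooled over cells, 2040012 of 87594314 reads were on the 10 genes in S-type (2.33%, exact 95% binomial interval 2.3258% to 2.3321%) and 1572963 of 74754909 in T-type (2.10%, interval 2.1009% to 2.1074%). The same sums were 1505695 of 103291763 in M-type (1.46%, interval 1.4554% to 1.4600%) and 1176614 of 89277423 in NR (1.32%, interval 1.3156% to 1.3203%). Counting error was far smaller than the spread between cells of 1 type.

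*Tuba1a*, the main alpha-tubulin of the developing brain, lies at chr15:98949837-98953703 (GRCm38, minus strand, 4 exons, as in all 10 genes). It had the highest mean level and the highest mean share of reads of all 23453 genes, held 62.1% of the reads on the 10 tubulins, and ranked between 1 and 13 in single cells with a median rank of 2. Normalized counts in S-type cells were 118073 at the lowest, 162793 at the median and 220323 at the highest. In T-type cells the same 3 values were 87166, 143282 and 1025732. The T-type median thus lay below the S-type median, while the mean of T-type (311465) lay above that of S-type (166410), with 54.9% of the T-type sum in J162_16. M-type cells held 77076 (J172_23), 163672 (J173_25), 107358 (J174_13), 69470 (J175_18) and 89409 (J176_25). NR cells held 127709 (J182_2), 119315 (J183_1), 56345 (J185_4), 127366 (J186_5) and 57226 (J187_6). The S-type cells were the most even of the 4 types, with a coefficient of variation of 0.226, against 0.371 in M-type, 0.383 in NR and 1.17 in T-type.

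*Tuba1b*, at chr15:98931425-98934565 (minus strand), is the alpha gene that most cycling cells use. S-type cells ranged from 13823 through a median of 29304 to 114666. The upper end was 2 cells, J150_3 with 114666 and J151_5 with 102078, and the next S-type cell, J155_9, had 32719. T-type cells ranged from 5810 through 45989 to 263821, again with J162_16 at the top. In M-type the values were 29566 (J172_23), 23909 (J173_25), 11904 (J174_13), 10568 (J175_18) and 20221 (J176_25), and in NR they were 5842 (J182_2), 9420 (J183_1), 27264 (J185_4), 40007 (J186_5) and 12850 (J187_6). The M-type cells all fell within the NR range. The type means were 50608 in S-type cells, 75725 in T-type cells, 19234 in M-type cells and 19076 in NR cells.

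*Tuba1c*, at chr15:99029891-99038110 (plus strand), had the widest spread of the alpha genes read in every cell, with a 1508-fold gap between the lowest and the highest of the 22 cells. It was read most in S-type, where 28880 reads were counted (exact 95% Poisson interval 28548 to 29215), and the 6 cells held 190 at the lowest, 3622 at the median and 7825 at the highest. In T-type, with 1337 reads (interval 1266 to 1411), J162_16 held 2854 and J163_18 held 2362, and the other 4 cells held 10.9 to 47.9. The T-type cells thus fell into a high pair and a low set of 4, and the pair was the 2 cells with the smallest size factors. M-type cells held 15.0 (J172_23), 1309 (J173_25), 1001 (J174_13), 5.19 (J175_18) and 2670 (J176_25). NR cells held 14.6 (J182_2), 217 (J183_1), 733 (J185_4), 114 (J186_5) and 122 (J187_6). Of the S-type cells, 5 of 6 lay above every NR cell, and J151_5 lay among them.

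*Tuba4a*, at chr1:75214228-75219865 (minus strand), is the alpha gene known for ending without the encoded tyrosine that other alpha-tubulins carry. It was the member in which M-type stood apart. M-type cells held 2.5 (J172_23), 22.4 (J173_25), 233 (J174_13), 45.7 (J175_18) and 365 (J176_25), from 1464 reads in all (interval 1390 to 1541). NR cells held 795 (J182_2), 1239 (J183_1), 620 (J185_4), 844 (J186_5) and 2146 (J187_6), from 8082 reads (interval 7907 to 8260). Every NR cell was therefore above every M-type cell. S-type cells ranged from 63.5 through 2147 to 4743 and T-type cells from 0 through 642 to 9626, so both overlapped M-type. The T-type cell without a read was J163_18, where 0 of 2937786 reads allow a level of up to 1.02 CPM (counts per 1000000 reads), and 67.9% of the T-type sum was in J164_19.

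*Tubb2a* (chr13:34074274-34078007, minus strand) and *Tubb2b* (chr13:34126748-34130466, minus strand) are neighbouring beta genes that are both prominent in brain. *Tubb2b* had a 9.2-fold and *Tubb2a* a 12.1-fold range over the 22 cells. The type means of *Tubb2a* were 23545 in S-type cells, 34360 in T-type cells, 22012 in M-type cells and 17148 in NR cells. Its medians were closer together, at 25462, 18293, 20912 and 15973 in the same order. *Tubb2b* had type means of 13093, 10033, 8787 and 6367 in that order. The NR cells were the most even for *Tubb2b*, between 5242 and 8220, and the highest cell was the S-type cell J154_8 with 30656. The T-type cell J163_18 came second with 21365.

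*Tubb4b*, at chr2:25222160-25224702 (minus strand), is a widely used beta gene that is also part of cilia. S-type cells ranged from 4250 through 9057 to 33706, the last in J150_3. T-type cells ranged from 3324 through 12955 to 95772, with J162_16 first and J161_9 second at 58486. On CPM the order of these cells was reversed, with 2671 in J161_9 and 2102 in J162_16. The other 4 T-type cells, at most 14167, were inside the S-type range or just under it. M-type cells held 3859 (J172_23), 16854 (J173_25), 4254 (J174_13), 4812 (J175_18) and 6766 (J176_25). NR cells held 1935 (J182_2), 4419 (J183_1), 7359 (J185_4), 11158 (J186_5) and 10704 (J187_6). The M-type and NR cells overlapped, and their means, 7309 and 7115, were close.

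*Tubb5*, at chr17:35833921-35838306 (minus strand), is the beta gene that dividing cells of most tissues rely on. S-type cells ranged from 2623 through 5420 to 24753 and T-type cells from 2804 through 5407 to 10478, so the medians of these types were nearly the same. The S-type maximum was J150_3, more than 3 times the next S-type cell (J151_5, 8179). M-type cells held 2116 (J172_23), 4115 (J173_25), 2036 (J174_13), 2073 (J175_18) and 5612 (J176_25). NR cells held 1887 (J182_2), 1357 (J183_1), 2047 (J185_4), 8141 (J186_5) and 235 (J187_6). Of the NR cells 4 of 5 were thus below every S-type and T-type cell, and J186_5 was above most of them.

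*Tubb6*, a beta gene read at low level in many tissues, had its lowest type mean in NR, as had 7 other members. It lies at chr18:67390717-67402749 (plus strand). NR cells held 49.2 (J182_2), 192 (J183_1), 32.4 (J185_4), 410 (J186_5) and 273 (J187_6), from 1445 reads in all (interval 1371 to 1521). M-type cells held 2722 (J172_23), 1337 (J173_25), 595 (J174_13), 397 (J175_18) and 1208 (J176_25), from 11091 reads (interval 10886 to 11299). The M-type cells lay above the NR cells except that J175_18 was just below J186_5. S-type cells ranged from 172.4 through 865 to 3280 and T-type cells from 185.5 to 3295, with 374 in J162_16 and 579 in J161_9 as the middle pair. Both types reached down into the NR range at their low end.

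*Tubb3*, the beta gene used as a marker of neurons, lies at chr8:123411424-123422015 (plus strand) and was scarce. It held 0.0684% of the tubulin reads. Of the 22 cells 17 had a read, and 0 reads were counted in J150_3, J151_5, J163_18, J166_25 and J187_6, which allows at most 0.187, 0.211, 1.02, 0.168 and 0.17 CPM. Single cells carried the type means, with 575 of normalized count in the S-type cell J154_8 (87.2% of the S-type sum) and 2208 in the T-type cell J161_9 (89.8%). In M-type J176_25 had 307 and in NR J185_4 had 298. The neuronal list took the largest share of reads in J151_5, where *Tubb3* had no read, and *Stmn2*, a regulator of microtubule growth and the best-read marker of the list, had its highest normalized count there, 31627.

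**Figure D2:**
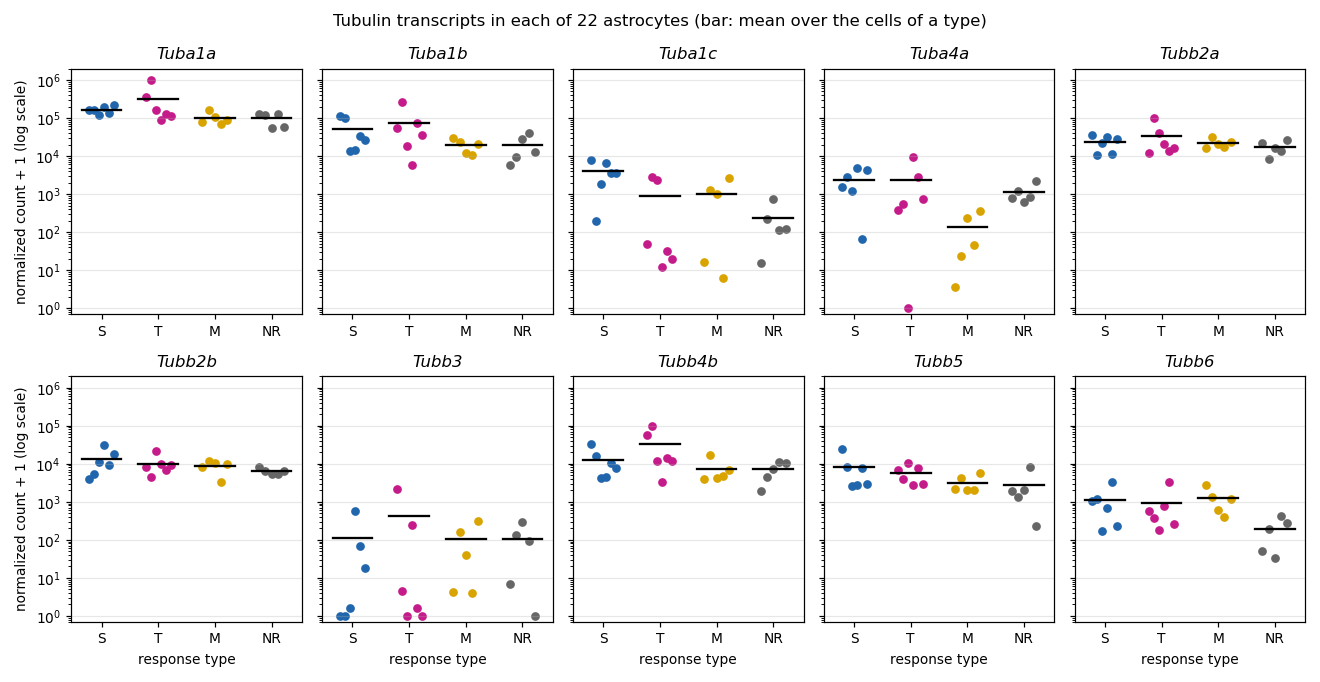
Each panel is 1 isotype, each point 1 cell (normalized count + 1, log scale, so that a cell without a read sits at 1) and each bar the mean of a response type. The points of different types overlap in every panel, apart from M-type and NR for *Tuba4a*, and T-type means for *Tuba1a*, *Tuba1b*, *Tubb2a* and *Tubb4b* sit above most T-type points.

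Between genes, levels were compared per kilobase (kb) of exon. The mean level per kb over the 22 cells was 97368 for *Tuba1a*, 24763 for *Tuba1b*, 15337 for *Tubb2a*, 9775 for *Tubb4b*, 4469 for *Tubb2b*, 1750 for *Tubb5*, 805 for *Tuba1c*, 499 for *Tubb6*, 458 for *Tuba4a* and 101 for *Tubb3*. Not all neighbours in this order were distinct. *Tuba1a* was above *Tuba1b* in 22 of 22 cells, but *Tuba1b* was above *Tubb2a* in 11 of 22, *Tubb4b* above *Tubb2b* in 12 of 22, *Tuba1c* above *Tubb6* in 9 of 22 and *Tubb6* above *Tuba4a* in 11 of 22. The steps from *Tubb2a* to *Tubb4b* and from *Tubb2b* to *Tubb5* held in 19 of 22 cells each, that from *Tubb5* to *Tuba1c* in 18 and that from *Tuba4a* to *Tubb3* in 16. The RNA was amplified from its 3′ end, so a count per kb rests on the assumption that reads spread over the whole transcript.

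**Figure D3:**
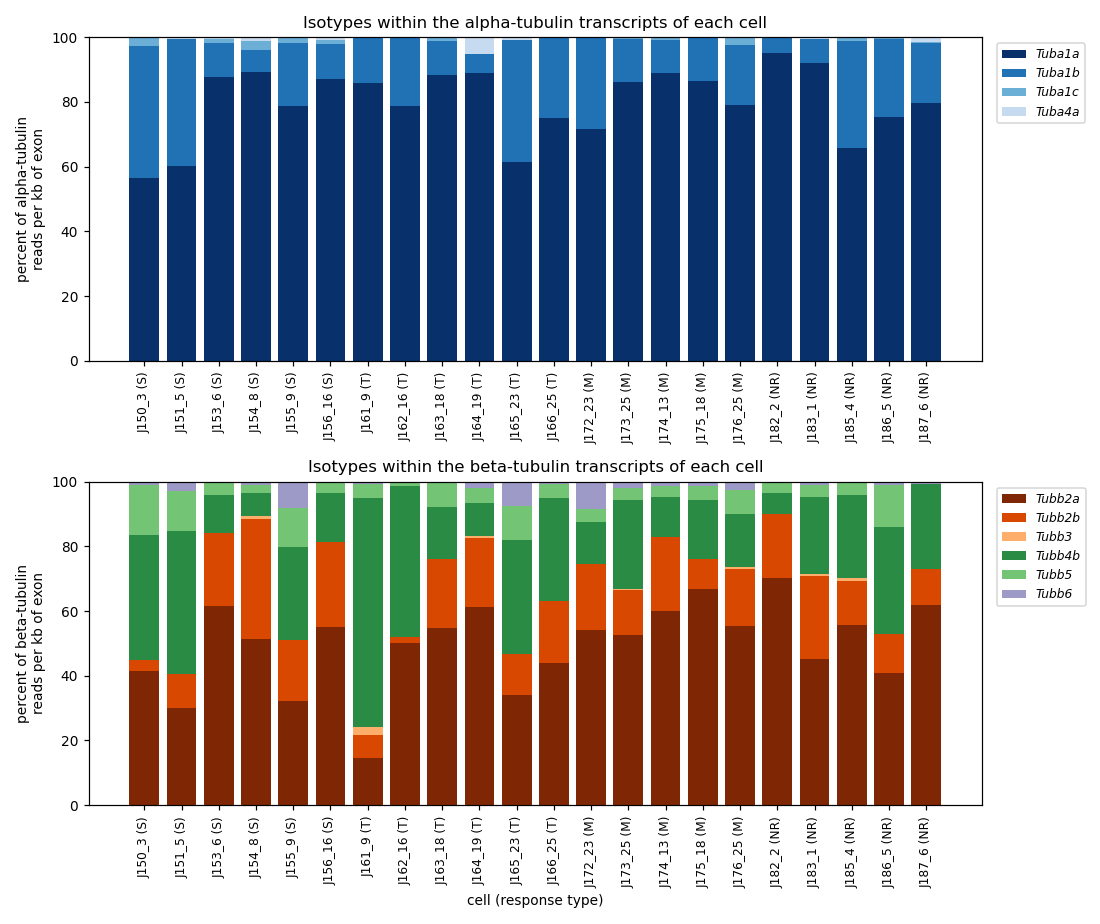
Each bar is 1 cell divided by isotype, in percent of alpha-tubulin (top) or beta-tubulin (bottom) reads per kb of exon. *Tuba1a* is the largest part of every alpha bar, with 56.4% in J150_3 at the least, and in the beta bars *Tubb2a* gives way to *Tubb4b* as the largest part in J151_5, J161_9 and J165_23.

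Within the alpha transcripts *Tuba1a* led in all 22 cells, whether reads were divided by exon length, by the number of windows found in no other gene, or by nothing. The median *Tuba1a* share of alpha reads per kb was 82.9% in S-type cells, 82.4% in T-type cells, 86.3% in M-type cells and 79.8% in NR cells, and these medians lay closer together than cells of 1 type. The share was lowest in J150_3 (56.4%), J151_5 (60.1%), J165_23 (61.3%) and J185_4 (65.9%), and *Tuba1b* made up nearly all of the rest there, with 40.8%, 39.3%, 37.9% and 33.0%. The first 3 of these 4 cells were also the 3 richest in transcripts of DNA replication, a list of 42 S-phase genes, at 0.575%, 1.30% and 1.02% of reads, and the 3 richest in a list of 51 genes of G2 and mitosis, at 2.35%, 1.22% and 0.665%. J185_4 was not, with rank 20 of 22 on both lists. Over all 22 cells the *Tuba1b* share of alpha reads had a rho of 0.19 with the S-phase share of reads and 0.30 with that of G2 and mitosis, and −0.08 and 0.06 without J150_3 and J151_5.

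Within the beta transcripts *Tubb2a* led in 19 cells and *Tubb4b* in the other 3 by each of the same 3 measures. *Tubb4b* held 70.9% of beta reads per kb in J161_9, 44.2% in J151_5 and 35.4% in J165_23. The median *Tubb5* share was 7.9% in S-type cells, 4.49% in T-type cells, 3.92% in M-type cells and 3.9% in NR cells. For *Tubb5* 5 cells exceeded 10%: J150_3 with 15.3%, NR cell J186_5 with 13.0%, J151_5 with 12.3%, J155_9 with 11.9% and J165_23 with 10.5%. Across the 22 cells, the *Tubb5* share of the beta reads and the G2 and mitosis share of all reads had a Spearman's rho of 0.64, and 0.54 without J150_3 and J151_5. For *Tubb6* rho was 0.58 and 0.56, for *Tubb2a* −0.59 and −0.49. These shares do not depend on the size factors, but they come from the same libraries, and no p-value is given.

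The ratio of alpha to beta reads per kb was above 1 in every cell. Its median was 3.78 in S-type cells (2.94 to 6.6), 4.06 in T-type cells (2.21 to 5.65), 2.75 in M-type cells (2.41 to 3.26) and 3.91 in NR cells (1.54 to 6.15). M-type cells spanned the narrowest range, which lay inside those of T-type and NR.

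Taken as ratios of type levels, the tubulins were higher in T-type and in S-type than in NR, and the sums of M-type and NR were close. The comparisons of T-, S- and M-type with NR share the 5 NR cells. A member was called past 2-fold where its log2 ratio of levels was at least 1 in size. Large ratios were common here with 5 or 6 cells a type, and the share of the 12719 tested genes past the same limit is given beside each count.

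T-type against NR had the largest median over the members. All 10 members were higher in T-type and 9 of 10 were at least 2-fold higher, while 28.6% of tested genes were at least 2-fold higher and 32.4% at least 2-fold lower. The median log2 ratio was 1.78 over the members and −0.05 over tested genes. The largest were *Tubb6* at 2.25 (1.18 to 2.73 with 1 cell left out), *Tubb4b* at 2.19 (1.48 to 2.43) and *Tuba1b* at 1.99 (1.00 to 2.45). *Tubb2b*, at 0.66, was the member not past the limit. For the sum of the 10 members the log2 ratio was 1.65, a 3.13-fold difference between 474452 and 151697. It was 0.83 without J162_16, and without that cell 6 members were past 2-fold, as they were without J162_16 and J163_18 (5 higher, and *Tuba1c* lower).

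The scale mattered as much. With CPM in place of size factors the median of all tested genes in T-type against NR moved by −0.39, the sum fell to 0.63 and 4 members were at least 2-fold higher. Measured from that shifted median, 8 of 10 members were at least 2-fold higher and all 10 were above it. *Tuba4a* and *Tubb3* turned negative without the 1 cell that held most of their T-type reads (−0.31 without J164_19 and −1.07 without J161_9), and *Tuba1c* and *Tubb2a* turned negative in the pooled CPM (−0.13 and −0.03). The direction of those 4 genes thus depended on 1 cell or on the scale. In none of the 10 members did the T-type and NR cells separate, as they did in 0.991% of tested genes. The S-phase list moved with this contrast, with 27 of 42 genes at least 2-fold higher in T-type, 1 lower and a median log2 ratio of 1.66, and the G2 and mitosis list had 22 of 51 higher, 13 lower and a median of 0.34. Their part was not tested.

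S-type against NR moved less when 1 cell was left out. All 10 members had a higher level in S-type and 6 were at least 2-fold higher, with 25.1% of tested genes at least 2-fold higher and 22.4% at least 2-fold lower. *Tuba1c* led with a log2 ratio of 4.03, a 16.4-fold difference, and 3.71 to 5.07 when 1 cell was left out. *Tubb6* followed at 2.52 (1.80 to 3.01), *Tubb5* at 1.58 (0.84 to 2.57), *Tuba1b* at 1.41 (0.99 to 1.87), *Tuba4a* at 1.10 (0.79 to 1.47) and *Tubb2b* at 1.04 (0.59 to 1.23). All 6 S-type cells were above the NR median for *Tuba1b*, *Tuba1c* and *Tubb5*. The sum differed by 0.90 on the log2 scale (0.78 to 1.03), and all 6 S-type cells were above the NR median of the sum. *Tubb3*, at 0.06, ranged from −2.64 to 0.94. With J150_3 and J151_5, the cells richest in cell-cycle transcripts, left out, 4 members stayed past the limit. They were *Tuba1c*, *Tuba4a*, *Tubb2b* and *Tubb6*. Without these 2 cells *Tuba1b* fell from 1.41 to 0.19, *Tubb5* from 1.58 to 0.57 and *Tubb4b* from 0.84 to −0.09. No member had S-type and NR cells that did not overlap, against 0.409% of tested genes. The cell-cycle lists moved with this contrast, with 44 of 51 G2 and mitosis genes at least 2-fold higher in S-type and 1 lower, and 36 of 42 S-phase genes higher and 2 lower. Their part in the tubulin ratios was not tested beyond leaving out those 2 cells.

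In M-type against NR 3 members were past 2-fold, 30% of the 10, beside 47.9% of tested genes. Among the 4568 genes with a mean level of at least 500, which all members but *Tubb3* reached, the share was 27.5%. *Tubb6* was higher in M-type by 2.71 on the log2 scale, 6.54-fold (2.21 to 3.19). *Tuba1c* was higher by 2.06 (1.28 to 3.10), beside 19.8% of tested genes at least 2-fold higher. *Tuba4a* was lower by a log2 ratio of −3.08 (−3.90 to −2.71), an 8.45-fold difference, beside 28.1% of tested genes at least 2-fold lower. It was the 1 member of 10 whose M-type and NR cells did not overlap, against 0.598% of tested genes. The other 7 members lay between −0.05 and 0.46, with *Tuba1b* at 0.01 and *Tubb4b* at 0.04, and the sum at 0.12 changed sign when J173_25 was left out (−0.10). The S-phase list had 19 of 42 genes at least 2-fold higher and 5 lower in M-type than in NR, and the G2 and mitosis list 23 of 51 and 7.

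The summed mural and fibroblast markers, nearly all of them reads of the single gene *Acta2*, moved with *Tubb6*, and nearly as much with *Tuba1b* and *Tubb5*. Their summed level and that of *Tubb6* had a rho of 0.63 over the 22 cells, and 0.60 without J150_3 and J151_5. For *Tuba1b* rho was 0.60 and 0.62, and for *Tubb5* 0.60 and 0.60. The markers' share of reads ranged from 0.0149% to 0.741% in S-type, from 0.00954% to 0.471% in T-type, from 0.00316% to 0.224% in M-type and from 0.0014% to 0.144% in NR. Of the 4 tested markers 3 were at least 2-fold higher than in NR in S-type cells, 2 in T-type cells and 2 in M-type cells, and 1, 2 and 1 were lower. Of all tested genes 25.1%, 28.6% and 19.8% were higher in the same order, and 22.4%, 32.4% and 28.1% lower. *Acta2*, smooth-muscle actin, held 539975 of these reads and the next marker, *Pdgfrb*, 4518, so the rho values are in effect those of *Acta2*. The log2 ratios of *Acta2* to NR were 2.08 in S-type cells (1.28 to 3.04 with 1 cell left out), 2.55 in T-type cells (1.72 to 3.51) and 1.42 in M-type cells (0.99 to 2.38). *Pdgfrb*, a receptor that defines mural cells, was lower than in NR in all 3, by log2 ratios of −2.35, −4.29 and −2.31, and *Rgs5* had no read. The part of such cells in the *Tubb6*, *Tuba1b* and *Tubb5* ratios was not tested.

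In T-type against S-type 3 members were past 2-fold, 30% of the 10, beside 58.2% of tested genes. Among genes with a mean level of at least 500 the share was 44.8%. *Tubb4b* was higher in T-type by 1.35 (0.64 to 1.93), with 26.0% of tested genes at least 2-fold higher. *Tuba1c* was lower by a log2 ratio of −2.15 (−2.99 to −1.83), with 32.2% at least 2-fold lower, and none of the 6 T-type cells reached the S-type median. *Tubb3*, at 1.90, fell to −1.13 without J161_9. *Tuba1a* kept its sign but shrank from 0.90 to 0.02 without J162_16, and the sum went from 0.75 to −0.07. With CPM the sum was −0.22, while the median of tested genes moved by −0.38, from −0.07 to −0.44. On that scale *Tubb4b* was at 0.42 and *Tuba1c* at −3.22, and *Tuba1c* was the only member of the 10 past the limit. Measured from the shifted median, *Tubb3* was past it as well. Cells of both types overlapped in all 10 members, and 0.771% of tested genes had cells that did not.

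**Figure D4:**
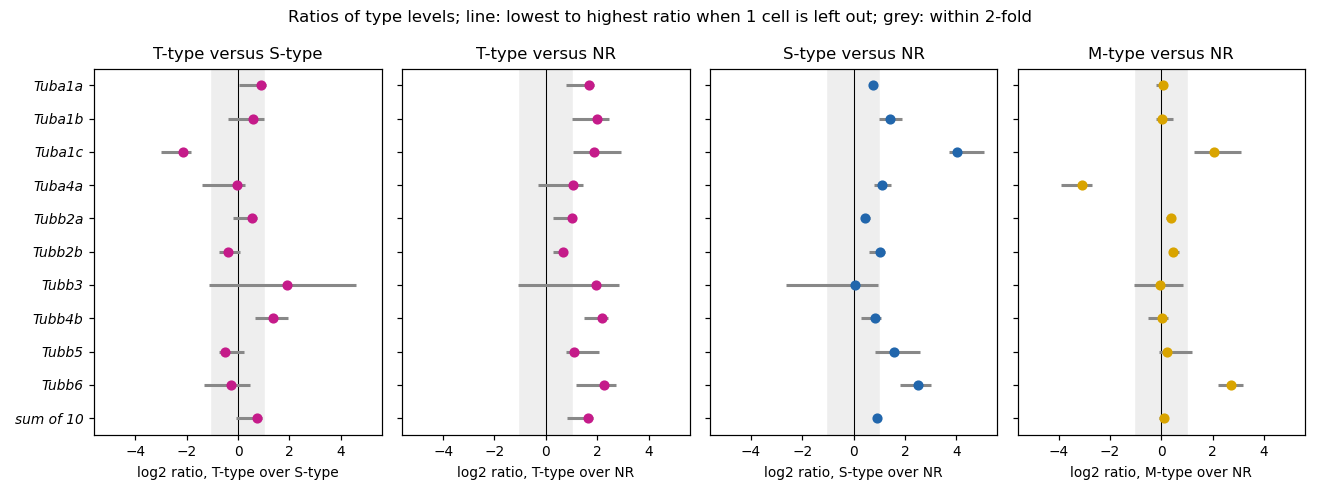
Points are log2 ratios of type levels for each isotype and their sum, lines run from the lowest to the highest ratio when 1 cell is left out, and the grey band is within 2-fold. In T-type versus NR nearly all points lie right of the band, in S-type versus NR *Tuba1c* stands farthest out at 4.03, and in M-type versus NR *Tuba4a* is the single point left of the band at −3.08.

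Over the 22 cells the isotypes did not rise and fall as 1 set. Spearman's rho of normalized counts had a median of 0.10 over the 45 pairs, from −0.38 to 0.79, with 6 pairs above 0.5 and 17 below 0. Pairs within the alpha or the beta genes (median 0.11) were like pairs across them (median 0.09). The 3 highest values linked *Tuba1b* with *Tubb4b* (0.79), *Tuba1b* with *Tubb5* (0.70) and *Tubb4b* with *Tubb5* (0.68). They remained the 3 highest without J150_3 and J151_5, at 0.74, 0.64 and 0.63. *Tubb2b* ran the other way, at −0.38 with *Tuba1b* and −0.31 with *Tubb4b*. On CPM the same pairs were at 0.75, 0.53 and 0.53, and this order was lost below the first, since *Tuba1c* had 0.57 with *Tubb2a* and 0.54 with *Tuba1a*, while *Tuba1a* with *Tubb4b* went from 0.57 to 0.30. Normalized counts of 1 cell share its size factor, and no p-value is given.

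**Figure D5:**
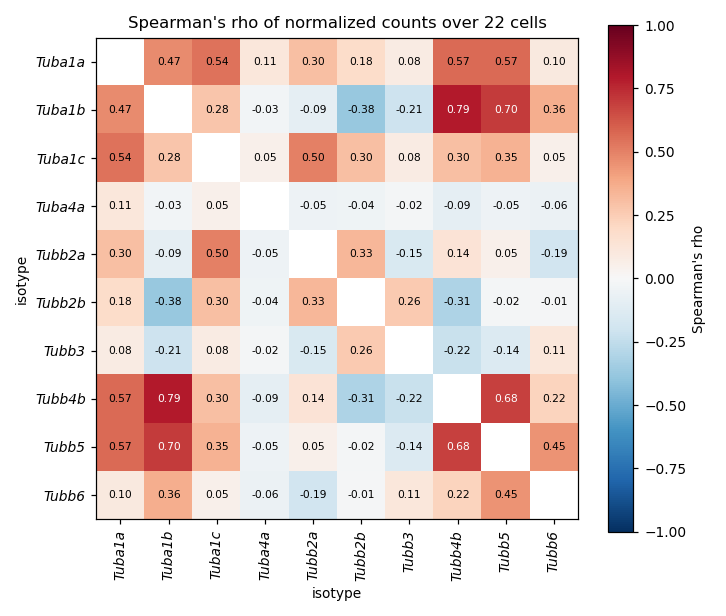
Each square is Spearman's rho of 2 isotypes over the 22 cells, from blue (−1) to red (1). The darkest red squares join *Tuba1b*, *Tubb4b* and *Tubb5* (0.68 to 0.79), and the rows of *Tuba4a* and *Tubb3* are pale.

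The beta genes among these, *Tubb4b* and *Tubb5*, are shown with the 250 bases before their RefSeq start, to show what stands before genes whose levels went together. The sequences are from RefSeq on GRCm38.p6, run 5′ to 3′ on the strand of the gene, and capitals mark CCAAT, the motif bound by the factor NF-Y. The search covered both strands, CCAAT and its reverse complement ATTGG.
Tubb4b, chr2:25224703-25224952, minus strand: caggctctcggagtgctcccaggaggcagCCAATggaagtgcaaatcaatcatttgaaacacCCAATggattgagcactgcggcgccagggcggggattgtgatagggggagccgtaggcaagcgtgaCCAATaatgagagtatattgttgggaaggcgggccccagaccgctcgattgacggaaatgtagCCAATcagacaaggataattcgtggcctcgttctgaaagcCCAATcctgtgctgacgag
Tubb5, chr17:35838302-35838551, minus strand: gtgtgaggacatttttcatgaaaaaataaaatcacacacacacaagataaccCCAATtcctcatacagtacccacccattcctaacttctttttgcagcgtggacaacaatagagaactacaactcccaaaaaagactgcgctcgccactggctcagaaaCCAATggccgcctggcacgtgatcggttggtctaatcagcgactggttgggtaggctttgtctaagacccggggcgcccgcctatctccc

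CCAAT stood 5 times before *Tubb4b* and 2 times before *Tubb5*. Of 32851 promoters of the same length 33.8% held it at least once, 10.1% held 2 or more and 0.213% held 5 or more. The other motif searched, TTTGAA with its reverse complement TTCAAA, stood 1 time before *Tubb4b* and not before *Tubb5*, and 16.0% of all promoters held it. The window of *Tubb4b* held no base of the GENCODE gene, and that of *Tubb5* reached 5 bases into it. Of the other members with a RefSeq window, *Tuba1c* held 1 CCAAT and *Tubb2a* none. The windows of *Tuba1a*, *Tuba1b*, *Tuba4a* and *Tubb3* had between 129 and 250 of their 250 bases inside the GENCODE gene, so they were not read as promoters, and *Tubb2b* and *Tubb6* had no entry. A match is a run of letters and not a site shown to be bound.

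The rho of a gene's level with the sum of the 10 tubulins over the 22 cells had a median of −0.08 over 11845 genes. Genes on any list, those of markers and of the cell cycle included, were left out before the closest were named. Among the rest, the highest were *Psmd13*, a subunit of the proteasome lid (rho 0.83), *Commd7* (0.77) and *Tpm3*, an actin-binding tropomyosin (0.75). On CPM, against the tubulin share of reads, the same genes had 0.63, 0.64 and 0.62.

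Of 10 other tubulin genes, *Tubb1* and *Tuba3a* had no read, *Tubg2* and *Tubal3* had 3 each, *Tubb4a* 6 and *Tuba3b* 8, in all 22 cells. *Tubg1*, the gamma-tubulin from which microtubules start, was read in 22 of 22 cells (4859 reads) with levels of 155.8 in S-type cells, 389 in T-type cells, 86.8 in M-type cells and 46.8 in NR cells. Most of the T-type level was in J165_23 (1557), and without that cell the log2 ratio of T-type to S-type went from 1.32 to −0.00 and that to NR from 3.06 to 1.73. *Tubd1*, a delta-tubulin of centrioles, was read in 14 cells, *Tube1* in 9 and *Tuba8* in 5.

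Of the 9 genes of the gamma-tubulin ring complex and its anchors, none was at least 2-fold higher in T-type than in S-type and 5 were at least 2-fold lower, beside 26.0% and 32.2% of tested genes (median log2 ratio −1.18, beside −0.07). In S-type against NR 4 were higher and 0 lower, beside 25.1% and 22.4% (median 0.72, beside 0.03). The best-read were *Cdk5rap2*, *Mzt1* and *Tubgcp3*. In T-type against S-type the member median was 0.26.

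Tubulin folding was represented by 14 genes, the cofactors that assemble the dimer and the prefoldin subunits that hand over nascent chains. In T-type against S-type 6 of 14 were at least 2-fold higher and 2 lower, beside 26.0% and 32.2% of tested genes (median log2 ratio 0.53, beside −0.07). T-type against NR had 3 higher and 1 lower, beside 28.6% and 32.4% (median 0.60, beside −0.05). S-type against NR had 4 and 2, beside 25.1% and 22.4% (−0.19, beside 0.03), and M-type against NR 2 and 0, beside 19.8% and 28.1% (0.33, beside −0.20). *Tbca*, which holds free beta-tubulin, was read most, at 8214 in S-type cells, 4546 in T-type cells, 5562 in M-type cells and 4908 in NR cells, and none of the 4 contrasts put it past 2-fold. *Vbp1*, a prefoldin subunit, was next. The summed folding genes and the summed tubulins had a rho of 0.60 over the 22 cells.

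Enzymes that modify tubulin counted 16 tested genes, and they split both ways in each contrast. T-type against S-type had 4 at least 2-fold higher and 7 lower, beside 26.0% and 32.2% of tested genes, and T-type against NR 4 and 6, beside 28.6% and 32.4%. S-type against NR had 6 and 4, beside 25.1% and 22.4%, and M-type against NR 6 and 5, beside 19.8% and 28.1%. *Sirt2*, a deacetylase, *Ttll12* and *Ttl*, the ligase that restores the final tyrosine, had the most reads. *Ttl* had levels of 1295 in S-type cells, 675 in T-type cells, 372 in M-type cells and 598 in NR cells. The sum of these enzymes and the summed tubulins had a rho of 0.67 over the cells.

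*Ttc5*, the factor of the RNA feedback, was sparse, with 2598 reads in 16 of 22 cells and levels of 14.6 in S-type cells, 54.5 in T-type cells, 69.8 in M-type cells and 150 in NR cells. Its log2 ratio to NR was −3.35 in S-type cells (−4.09 to −1.86 with 1 cell left out), −1.46 in T-type cells (−2.36 to 0.04) and −1.10 in M-type cells (−1.93 to 0.39). The NR level rested on J182_2, with a normalized count of 536, and without that cell the T-type and M-type ratios were the 0.04 and 0.39 just given. Of the 7 genes of the list it shared with the severing enzymes, 2 were at least 2-fold higher and 3 lower in S-type against NR, beside 25.1% and 22.4% of tested genes. *Ttc5* was not among the 3 best-read genes of its list, which were *Spast*, *Fignl1* and *Katna1*, and is named for its role after its values were seen.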

How the data were processed

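The 22 single astrocytes were lifted by pipette, and their RNA was amplified as antisense RNA and sequenced. Per the authors' methods and the submitters' processing notes, reads were trimmed, aligned to GRCm38 (mm10) with STAR, and uniquely aligned reads were counted with VERSE, a form of HTSeq that assigns exons first. Versions are not given in the sources used here. The deposited values are raw read counts per gene, without molecular identifiers, so a count can hold copies made in amplification. Columns were matched to cells by title, and the response type in the table matched the label in 22 of 22 cells. No 2 cells had identical counts.

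From these counts size factors (median of ratios, 3670 genes read in every cell), levels and log2 ratios were computed with Python 3.11.15, NumPy 2.4.6, pandas 2.3.3 and SciPy 1.17.1. A type without a read was set to a floor of 3 reads. Ratios were taken for T-type against S-type and for T-, S- and M-type against NR, the contrasts the study used. The study's test treats cells as replicates, but no label ties a cell to a pup or dish, so no p-value is given. Exon lengths, windows of 75 bases and coding sequences came from GENCODE and promoters from RefSeq (GRCm38.p6). Biopython 1.88 aligned coding sequences. No genome sequence was used, so windows were searched among transcripts only. The alternatives were CPM (counts per 1000000 reads), TMM factors of edgeR 4.0.16 (R 4.3.3), size factors without the tubulins, medians, log means, a pseudocount of 1, thinning to 2937786 reads, and leaving out cells. All 10 members are named, and of each gene list the 3 best-read genes, any other tubulin gene and the 3 genes outside all lists most like the summed members. Members and lists were chosen with earlier results of these data known. The steps were tested on simulated counts. The coding ends of the alpha genes are not reported here.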

Additional observations from a re-analysis of the deposited data

Results flagged for a closer look

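In 15 of 52 sets of values (10 members, the tubulin share of reads and both pool shares in each type) 1 cell stood farther from the rest of its type than Dixon's 95% limit for that group size. By chance about 1 set in 20 is passed where values are normally distributed. Normalized counts of single cells were skewed upward, and in each of the 15 sets the cell was the highest of its type. That rate therefore need not hold here, and no excess is read from the count. The sets also share cells, so they are not separate counts.

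In S-type the cells were J154_8 for *Tubb3* (575, the others 0 to 66.7), J150_3 for *Tubb5* (24753, the others 2623 to 8179) and J155_9 for *Tubb6* (3280, the others 172.4 to 1196). J155_9 also had the largest share of reads on mural and fibroblast markers, 0.741%, and its part in the *Tubb6* value was not tested. In T-type J162_16 stood apart for *Tuba1a* (1025732, the others 87166 to 356967), *Tuba1b* (263821, the others 5810 to 74165) and *Tubb2a* (103206, the others 12094 to 40625). J162_16 also had a size factor of 0.276 and the fewest genes read, 6319. On CPM it was still the highest T-type cell for *Tuba1a*, at 22511 with J161_9 next at 16303. For *Tuba1b* J165_23 was above it on CPM (5936 against 5790), and for *Tubb2a* J163_18 was (2535 against 2265). The part of the low gene number in its values was not tested. Other T-type cells were J164_19 for *Tuba4a* (9626, the others 0 to 2881), J163_18 for *Tubb2b* (21365, the others 4577 to 9801), J161_9 for *Tubb3* (2208, the others 0 to 246) and J165_23 for *Tubb6* (3295, the others 185.5 to 779).

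In M-type J173_25 stood apart for *Tubb4b* (16854, the others 3859 to 6766) and J176_25 for the *Tubb5* share of beta reads per kb (7.33%, the others 3.19% to 4.26%). In NR the cells were J185_4 for *Tuba1c* (733, the others 14.6 to 217) and J186_5 for *Tubb5*, both as a normalized count (8141, the others 235 to 2047) and as a share of beta reads per kb (13.0%, the others 0.308% to 3.93%).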

How the results depend on the processing

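Of 252 values recomputed for the comparisons, 238 stayed within the spread between cells or within 1.5 times the count. That spread was wide, so a value could change sign and still count as having stayed. The summed log2 ratio of T-type against S-type, with a spread of 0.92, went from 0.75 to −0.15 by pooled CPM. It was −0.07 without J162_16, and both counted as having stayed. With mean CPM, the summed log2 ratio of T-type against S-type was −0.22 and that against NR 0.63, and 1 and 4 members were past 2-fold. Pooled CPM gave 0.67 and 4 members for T-type against NR. With medians over cells the summed ratio of T-type against S-type was −0.22, and 5 members were past 2-fold in T-type against NR. At 4-fold the counts were 1 (T-type against S-type), 2 (T-type against NR) and 2 (S-type against NR). The median *Tubb5* share in M-type was 6.46% with reads not divided by length. Leaving out 1 cell at a time gave 2 to 5 members in T-type against S-type, 5 without J164_19 or without J165_23.

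Called members changed sign as follows. *Tubb3* in T-type against S-type was −2.05 by medians and −1.13 to 4.60 with 1 cell left out. In T-type against NR *Tuba1c* was −0.13 by pooled CPM, −1.64 by medians, −0.14 by log means and −3.15 without J162_16 and J163_18. *Tubb2a* was −0.03 and −0.14 by the first and the last of these. *Tuba4a* was −0.39 by medians, −1.34 by log means and −0.31 to 1.43 with 1 cell left out, and *Tubb3* was −5.44, −1.26 and −1.07 to 2.84. The cause was not tested. Leaving out J162_16, or it and J163_18, was chosen after seeing the data. No paired analysis was possible because no result comes from a test, and the labels do not say what the numbers that some cell titles share stand for. Uniqueness was searched in transcripts and not in the genome.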
